A study of Danio rerio with 7 samples.

Results

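The 4 genes described here are MVP (ENSDARG00000021242), ifitm1 (ENSDARG00000093303), CD81 (ENSDARG00000036080) and mhc1zba (ENSDARG00000036588), out of 16394 gene rows in the deposited tables. They were chosen by values measured in these same cells, namely their difference between hmga1a+/+ and hmga1a-/- fish. Their levels and shares of cells by genotype are therefore given as a description, with no test; a fitted fold change and its SE state a size. What the choice did not use, such as whether the same cells carry them, is described beside it. The comparison of joint carriage between genotypes still depends on the shares of wells, which differ by that choice. All 4 genes had a row. MVP, ifitm1 and CD81 are listed under those symbols in the name table used, which writes many zebrafish genes in human style. That table gives the symbol CD81 to 2 identifiers, and 1 of them had a row, so a near-identical copy could share its reads.

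Major vault protein, encoded by MVP, builds most of the vault, a large hollow ribonucleoprotein particle of the cytoplasm whose other protein parts are encoded by tep1 and parp4. In mammals, members of the IFITM family are interferon-inducible membrane proteins that hinder the entry of many enveloped viruses, and CD81 is a tetraspanin that organises membrane domains with partner proteins and is common on extracellular vesicles. The mhc1z genes are a zebrafish lineage of major histocompatibility complex class I genes. The classical class I molecules pair with beta-2-microglobulin and show peptides to T cells.

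The cells were taken from ventricles of adult zebrafish whose hearts had been cryoinjured 7 days earlier. The fish carried Tg(nppa:mCitrine), in which the promoter of the natriuretic peptide gene nppa drives a fluorescent reporter, and strongly fluorescent cells were placed singly in the wells of 384-well plates. All fish of both groups carried this transgene. One group was homozygous for a mutant allele of hmga1a, the gene of an HMG protein that binds chromatin, and the other was wild type for it. Each genotype was pooled from 12 hearts, 3 wild-type and 4 mutant plates were analysed, and no label ties a plate to separate animals. The treatment protocol names another reporter colour, mCherry, than the series text does.

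The plates held between 310267 and 808070 estimated transcripts, and 1033 of 2688 wells reached 1000 transcripts outside spike-ins and mitochondrial genes (kept wells: 499 wild type, 534 mutant). The median kept well held 1650 to 2672 transcripts in wild type and 1815 to 2586 in mutants. Cardiomyocyte markers made up 22.7% of transcripts in the median kept well, which goes with the labelled cell type. A second set, called muscle-rich here, was limited to the 941 kept wells with at least 50% of that median share. It is a range of a continuous measure, and 32 wells lay within 20% of its boundary. Both sequencing runs (flow cells) held both genotypes: run 1 held wild-type replicate 1 and mutant replicates 1 and 2. The targeted gene hmga1a stood at 114 ± 10.2 CPM (counts-per-million, scaled by TMM) over wild-type and 37.2 ± 19.3 CPM over mutant plates (mean ± SD, n = 3 and 4) with no overlap in kept wells, though edgeR did not call it (adjusted p = 0.108). In muscle-rich wells its levels overlapped between genotypes.

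MVP, the vault shell gene, was higher in every mutant plate than in every wild-type plate. Over kept wells it stood at 131, 43.7 and 137 CPM in wild-type replicates 1, 2 and 3. In mutant replicates 1 to 4 it stood at 268, 421, 331 and 485 CPM. The lowest mutant plate was thus above the highest wild-type plate, and wild-type replicate 2 was below the other wild-type plates. The means were 104 ± 52.3 and 376 ± 96.1 CPM (SD, n = 3 and 4), and the fitted log2 fold change, with sequencing run as covariate, was 1.88 (SE 0.38). In muscle-rich wells MVP stood at 26.8, 39.2 and 74.3 CPM in wild-type plates. In the 4 mutant plates it stood at 289, 422, 346 and 501 CPM there. The mutant level was thus almost the same in both sets, while the wild-type mean was lower in muscle-rich wells, at 46.8 ± 24.7 CPM. The fitted log2 fold change was 3.05 (SE 0.29), and the log2 differences were 3.66 within run 1 and 2.92 within run 2.

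The higher wild-type level over all kept wells rested on a pair of wells. One well of wild-type replicate 3 held 46 of that plate's 91 MVP UMIs (a UMI is 1 barcoded molecule), and one well of wild-type replicate 1 held 27 of 34. These were very deep wells, with 23836 and 30270 transcripts, and both were low in cardiomyocyte markers, at 2.37% and 10.4% of transcripts. The first also held 182 transcripts of fibroblast and epicardial markers, and in the second 10.04% of transcripts were mitochondrial. They carried CD81 as heavily, with 45 and 26 UMIs, and mhc1zba with 7 and 4 UMIs, but no ifitm1. Without these 2 wells, a choice made after seeing the data, MVP in wild-type replicate 1 was 32.4 in place of 139 CPM without TMM scaling, and in wild-type replicate 3 it was 70.2 in place of 137. Whether these wells held 1 cell each was not tested.

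The interferon-linked gene ifitm1 had the steadiest difference of the 4 across sets and runs. Over kept wells it stood at 23.2, 19.7 and 16.6 CPM in the wild-type plates. In mutant replicates 1 to 4 it stood at 143, 196, 108 and 159 CPM. No plates overlapped, and the lowest mutant plate was several times the highest wild-type plate. The means were 19.8 ± 3.30 and 152 ± 36.3 CPM (SD, n = 3 and 4), a ratio of 7.66, and the fitted log2 fold change was 2.85 (SE 0.31). The log2 differences were 2.80 within run 1 and 2.79 within run 2. In muscle-rich wells the levels were 32.1, 21.1 and 19.0 CPM in wild-type plates. The mutant plates held 161, 230, 113 and 172 CPM there, with a fitted log2 fold change of 2.73 (SE 0.33). The gene's genotype difference was thus alike whether or not muscle-poor wells were included.

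CD81, the tetraspanin, overlapped between genotypes over all kept wells. Its wild-type plates stood at 135, 84.5 and 155 CPM. Its mutant plates stood at 232, 250.5, 145 and 226 CPM. Mutant replicate 3 lay below wild-type replicate 3, and the means were 125 ± 36.4 and 214 ± 46.7 CPM (SD, n = 3 and 4; fitted log2 fold change 0.70, SE 0.27). In muscle-rich wells the groups no longer overlapped. Wild-type plates stood at 21.4, 76.9 and 98.5 CPM. Mutant plates stood at 198, 202, 152 and 246 CPM, and the fitted log2 fold change was 1.56 (SE 0.32). The log2 difference there was 3.17 within run 1, where the only wild-type plate was the lowest of all, and 1.14 within run 2. The 2 deep wild-type wells bore on CD81 as well: without them, CD81 in wild-type replicate 1 was 41.7 in place of 143 CPM without TMM scaling, and in wild-type replicate 3 it was 90.4 in place of 155.

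The class I gene mhc1zba did not separate the genotypes. Over kept wells it stood at 46.3, 22.5 and 31.6 CPM in wild-type plates. Mutant replicates 1 and 2, of run 1, held 70.5 and 72.6 CPM, and mutant replicates 3 and 4, of run 2, held 10.2 and 13.95 CPM. Mutant plates were above wild type in run 1 and below it in run 2, with log2 differences of 0.62 and -1.10. The means were 33.5 ± 12.0 and 41.8 ± 34.4 CPM (SD, n = 3 and 4), and the fitted log2 fold change was -0.37 (SE 0.48). In muscle-rich wells mhc1zba was too low for the fit. Its plates stood at 32.1, 13.6 and 19.0 CPM in wild type. The mutant plates stood at 43.8, 9.38, 10.7 and 6.14 CPM, so that mutant replicate 1 was above all others and the other 3 mutant plates were below every wild-type plate.

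**Figure D1:**
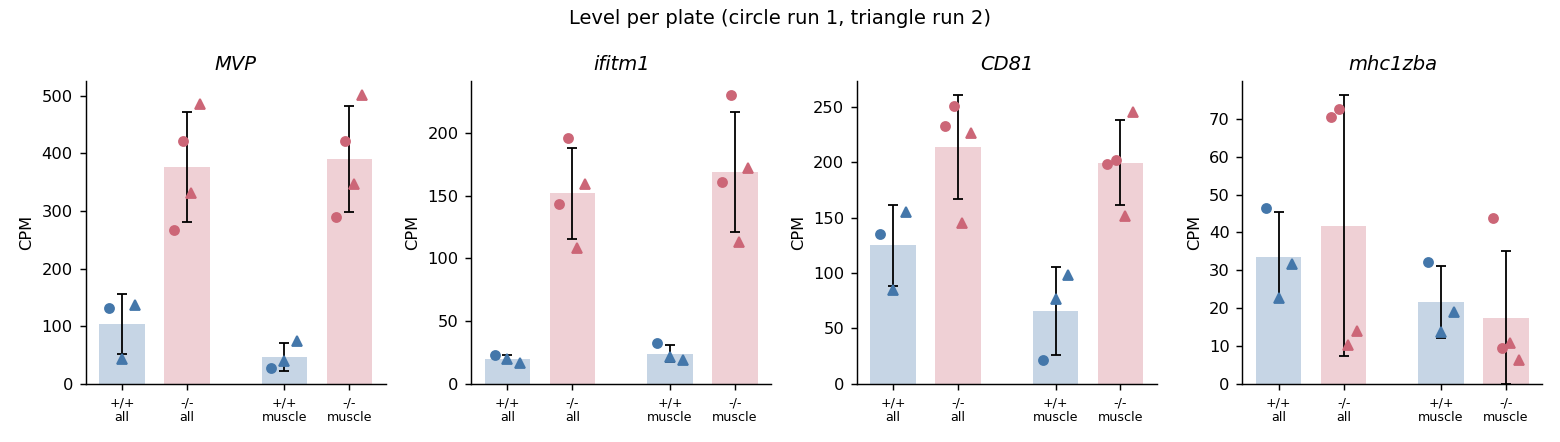
TMM-scaled counts-per-million (y axis, own scale for each gene) of MVP, ifitm1, CD81 and mhc1zba in wild-type (+/+, blue) and mutant (-/-, red) plates, summed over all kept wells (all) or muscle-rich wells (muscle). Each point is 1 plate (circle run 1, triangle run 2), bars are means and error bars the SD (n = 3 and 4); MVP and ifitm1 do not overlap in either set, CD81 does over all kept wells, and mhc1zba differs more between runs than between genotypes in the mutant plates of all kept wells.

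Across all genes, edgeR's quasi-likelihood test with Benjamini-Hochberg adjustment called 14 of 2798 genes over kept wells (0.5%), of which 7 were higher in mutants (0.25%). In muscle-rich wells 59 of 2214 genes were called (2.66%) and 31 were higher (1.4%). Every mutant plate was above every wild-type plate for 161 genes over kept wells (5.75%), including MVP and ifitm1, and for 162 genes in muscle-rich wells (7.32%), including CD81 as well. Since the genes were chosen on this contrast, nothing is read from their place among these genes.

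Markers of other cell types were not alike across plates. Summed leukocyte markers (18 genes with a row) took 1.69 to 2.52 of 10000 transcripts in wild-type plates, 18.7 in mutant replicate 1 and 0.039 to 0.137 in the other mutant plates. In mutant replicate 1, 636 of the 813 transcripts of these markers lay in a single muscle-poor well. In muscle-rich wells the range was 0.043 to 0.394 in wild type and 0.049 to 0.527 in mutants. Muscle-poor wells numbered 31 in wild type and 61 in mutants, 28 of the latter in mutant replicate 1. Mitochondrial transcripts made up 2.91% and 2.69% of the median kept well in mutant replicates 1 and 2 and at most 1.40% in the other plates. The part of these differences in the levels of the genes described here was not tested, over all kept wells or in muscle-rich wells.

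The share of wells with at least 1 UMI also stood apart between genotypes for MVP. It was found in 48 of 499 wild-type wells (9.62%) and 181 of 534 mutant wells (33.9%). By plate the shares were 8.08%, 7.43% and 12.6% in wild type. In mutant plates they were 39.4%, 36.5%, 31.4% and 30.3%, all above every wild-type plate. With every well thinned to 1000 UMIs, to remove differences in depth, the expected shares were 3.85%, 3.08% and 4.91% in wild type. They were 19.8%, 23.3%, 19.9% and 22.8% in mutant plates. The 7 wells among the kept ones with fewer than 1000 UMIs were left out of the thinning, 2 in wild type and 5 in mutants.

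For ifitm1, 20 wild-type wells (4.01%) and 117 mutant wells (21.9%) held a UMI. The thinned shares were 1.38%, 1.31% and 1.98% in wild-type plates. They were 11.7%, 12.8%, 9.42% and 10.9% in mutant plates, so that no plates overlapped. For CD81, 83 wild-type wells (16.6%) and 152 mutant wells (28.5%) held a UMI. Its thinned shares were 2.81%, 5.54% and 7.47% in wild type, and the mutant plates had 15.96%, 15.6%, 12.3% and 14.5%. The shares of CD81 thus did not overlap, although its summed levels over the same wells did. How many of all genes have shares without overlap was not counted, so nothing is read from this for MVP, ifitm1 or CD81. For mhc1zba, 22 wild-type wells (4.41%) and 26 mutant wells (4.87%) held a UMI. Its thinned shares were 2.15%, 1.24% and 2.60% in wild type, and the mutant plates had 4.56%, 2.40%, 0.876% and 1.41%, so that the genotypes overlap.

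**Figure D2:**
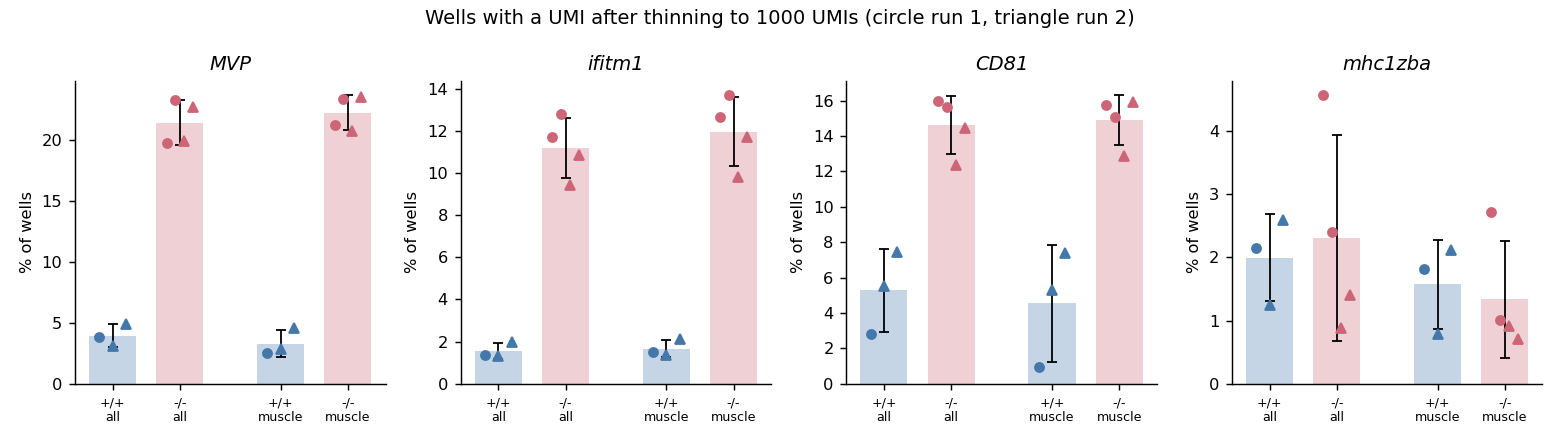
Expected percentage of wells with at least 1 UMI after thinning each well to 1000 UMIs (y axis, own scale for each gene), by genotype, over all kept wells (all) or muscle-rich wells (muscle). Points are plates (circle run 1, triangle run 2), bars means and error bars the SD (n = 3 wild-type and 4 mutant plates); mutant plates lie between 19.8% and 23.3% for MVP over all kept wells and wild-type plates between 3.08% and 4.91%.

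Many carrying wells held a single molecule. Of wells with MVP, 27 of 48 in wild type and 72 of 181 in mutants held 1 UMI. The corresponding numbers were 12 of 20 and 69 of 117 for ifitm1, 55 of 83 and 87 of 152 for CD81, and 11 of 22 and 14 of 26 for mhc1zba. At this depth a well without a UMI is therefore not shown to lack the transcript. MVP was nevertheless spread unevenly: had each mutant plate's MVP transcripts been spread evenly by depth, 50.8% to 66.8% of wells would have held one, against the 30.3% to 39.4% observed. For ifitm1 the even spread would give 25.0% to 43.0% of wells in mutant plates, against 17.6% to 27.1%. For CD81 it would give 31.5% to 50.3% there, against 25.1% to 33.3%. The shortfall was not particular to these genes: hmga1a in wild-type plates had 22.6% to 32.8% against 6.06% to 18.8%. Whether MVP was more uneven than other genes was not tested. The mean number of UMIs in a carrying well was 3.32 ± 1.13 in wild type and 3.23 ± 0.834 in mutants for MVP (SD, n = 3 and 4 plates). It was 1.66 ± 0.397 and 1.99 ± 0.408 for ifitm1, and 3.35 ± 2.21 and 2.19 ± 0.527 for CD81. Over kept wells these means differed between genotypes by less than the spread between plates. In muscle-rich wells the means were 1.62 ± 0.544 and 3.13 ± 0.735 for MVP and 1.43 ± 0.104 and 1.91 ± 0.206 for CD81, higher in mutants. For ifitm1 they were 1.66 ± 0.397 and 2.03 ± 0.408 in muscle-rich wells. Wild-type replicate 1 there rested on 5 wells with 1 MVP UMI each and on 3 wells with 4 CD81 UMIs in all. UMIs per carrying well can rise with the level of a gene, which differs by the choice of genes. Nothing is therefore read from the genotype differences in these means.

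No cell type in these plates is known to lack all 4 genes, so stray RNA was read from nearly empty wells. The 664 mutant wells under 100 transcripts held 17728 transcripts in all, with 5 UMIs of MVP, 3 of ifitm1, 3 of CD81 and 0 of mhc1zba. The 164 wild-type wells of this kind held 8105 transcripts, with 2 UMIs of MVP, 2 of mhc1zba and 0 of ifitm1 and CD81. Mutant wells of this kind averaged 26.7 transcripts each. Of 10000 of their transcripts, 2.82 were MVP, 1.69 ifitm1 and 1.69 CD81, against 3.60, 1.43 and 2.04 in kept mutant wells. In mutants the rates of these 3 genes were thus near those of kept wells, from few UMIs, while mhc1zba had 0 against 0.382. In wild type the rates rested on still fewer UMIs, in 8105 transcripts, so neither likeness to kept wells nor a difference from them is shown. Of 10000 transcripts in nearly empty wild-type wells, 2.47 were MVP and 2.47 mhc1zba, against 0.955 and 0.299 in kept wells. For ifitm1 and CD81 the wild-type rates were 0, against 0.189 and 1.21. The part of stray RNA in the shares was not tested.

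The wells with 10 or more MVP UMIs were mostly muscle-rich in mutants, while in wild type there were only 2, both muscle-poor. How many wells reach 10 UMIs depends on the level of MVP, which differs by the choice of genes. In mutants 10 wells held 10 or more MVP UMIs, at most 19, and 9 of them were muscle-rich. Of these 10 wells, 7 also held ifitm1 and 8 held CD81. They were deep wells, with 3929 to 26210 transcripts against medians of 1815 to 2586 in kept wells of mutant plates. No expected number at that depth was computed, so these counts are no measure of joint carriage. In wild type the 2 deep muscle-poor wells were the only ones with 10 or more, and no muscle-rich well held more than 5. The richest CD81 well among mutants, with 16 UMIs in mutant replicate 1, was muscle-poor and held 636 transcripts of leukocyte markers. The richest mhc1zba well, with 13 UMIs in mutant replicate 2, had 0.787% of transcripts from cardiomyocyte markers. That well held 13.0 transcripts of endothelial markers and 12.0 of fibroblast and epicardial markers.

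**Figure D3:**
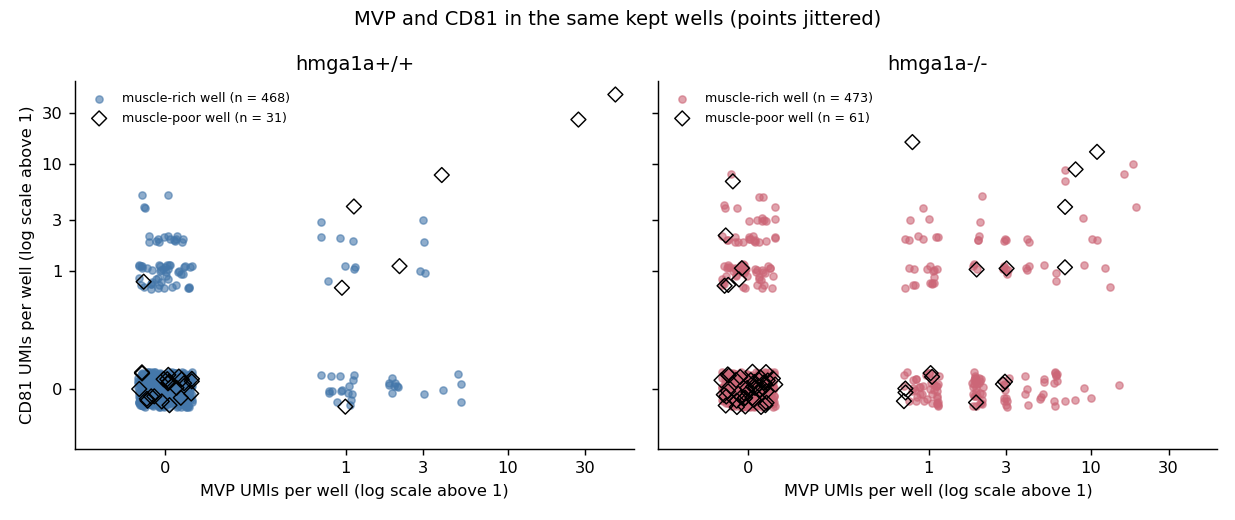
Number of MVP UMIs (x axis) and CD81 UMIs (y axis) in each kept well of wild-type (left) and mutant (right) plates, both axes linear up to 1 and logarithmic above, with points jittered. Filled circles are muscle-rich wells (468 and 473) and open diamonds muscle-poor wells (31 and 61); the 2 wild-type wells at the upper right, with 46 and 27 MVP UMIs, are muscle-poor.

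In muscle-poor wells the 4 genes stood otherwise. Over all wild-type muscle-poor wells MVP stood at 587 and CD81 at 615 CPM without TMM scaling, most of it in the 2 deep wells, against 275 and 307 in mutants. The shares of wells with MVP were close, at 7 of 31 wild-type and 15 of 61 mutant wells. For ifitm1 the counts were 0 of 31 wild-type wells, which allows a share of up to 9.68%, and 8 of 61 mutant wells (13.1%). For mhc1zba they were 8 of 31 and 12 of 61, or 164 and 190.4 CPM on the same scale. Thus muscle-poor wells, 92 of the 1033 kept, held 20 of the 48 wells with mhc1zba.

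Whether the same wells carry the genes was read from the 6 pairs of genes. For each pair, the wells with both were compared with the number expected if each gene were spread independently among the wells of the same plate and depth tertile. Over all pairs, wild-type plates had 43 such cases against 28.7 expected (ratio 1.496), and mutant plates had 210 against 176 (ratio 1.19). By plate the ratios were 2.40, 1.54 and 1.25 in wild type. They were 1.12, 1.08, 1.37 and 1.25 in mutants. The plate means were 1.73 ± 0.597 and 1.204 ± 0.130 (SD, n = 3 and 4; two-sided exact permutation p = 0.0571, where 0.0286 is the smallest p the 35 arrangements allow). Over all 6 pairs joint carriage was thus above its expected number in all 7 plates. Over the pairs of MVP, ifitm1 and CD81 alone it was below that number in wild-type replicate 3, with 9 cases against 10.2, and close to it in mutant replicate 2, with 29 against 28.5. The difference over all pairs between genotypes did not pass 0.05. The largest ratio possible falls as the shares of carrying wells rise, and these shares differ between genotypes by the choice of genes. The genotype difference in the ratio is therefore not free of that choice, and nothing is concluded from it. The arrangements also took no account of sequencing run. Without tertiles the ratios over all pairs were 2.13 in wild type and 1.40 in mutants. Wells still differ in depth within a tertile. The part of that depth in the ratios, over all pairs or for single pairs, was not tested. The 2 deep wild-type wells gave 6 of the 43 wild-type cases. The ratio of 2.40 in wild-type replicate 1 rested on 8 cases against 3.33 expected, some of them from its deep well. In muscle-rich wells the ratios were 1.15 over wild-type and 1.13 over mutant plates, and the plate means were 1.24 ± 0.212 and 1.11 ± 0.210 (exact permutation p = 0.486).

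The pairs were not alike. MVP and ifitm1 were together in 62 mutant wells against 47.3 expected (ratio 1.31), and in 1 wild-type well against 2.37. The excess in mutants lay in run 2, with 24 wells against 12.7 in mutant replicate 3 and 12 against 8.09 in mutant replicate 4. In mutant replicates 1 and 2 the counts were 16 against 15.7 and 10 against 10.8. MVP and CD81 were together in 67 mutant wells against 60.1 expected and in 18 wild-type wells against 12.4. The ifitm1 and CD81 counts were near their expectation in both genotypes, at 42 against 39.3 in mutants and 4 against 4.40 in wild type. CD81 and mhc1zba were together more often than expected in both, in 16 mutant wells against 9.67 and in 12 wild-type wells against 5.32. In muscle-rich wells this pair stood at 6 against 4.99 in mutants and 6 against 2.86 in wild type.

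All of MVP, ifitm1 and CD81 were found together in 26 of 534 mutant wells and in 0 of 499 wild-type wells, where 0 allows a share of up to 0.601%. At least 1 of these 3 genes was found in 57.1% of mutant wells and 25.7% of wild-type wells. By plate that share was 14.1%, 24.8% and 32.3% in wild type and 63.6%, 62.4%, 52.6% and 53.5% in mutants. These counts rise with the share of wells that carry each gene and are no measure of joint carriage by themselves.

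**Figure D4:**
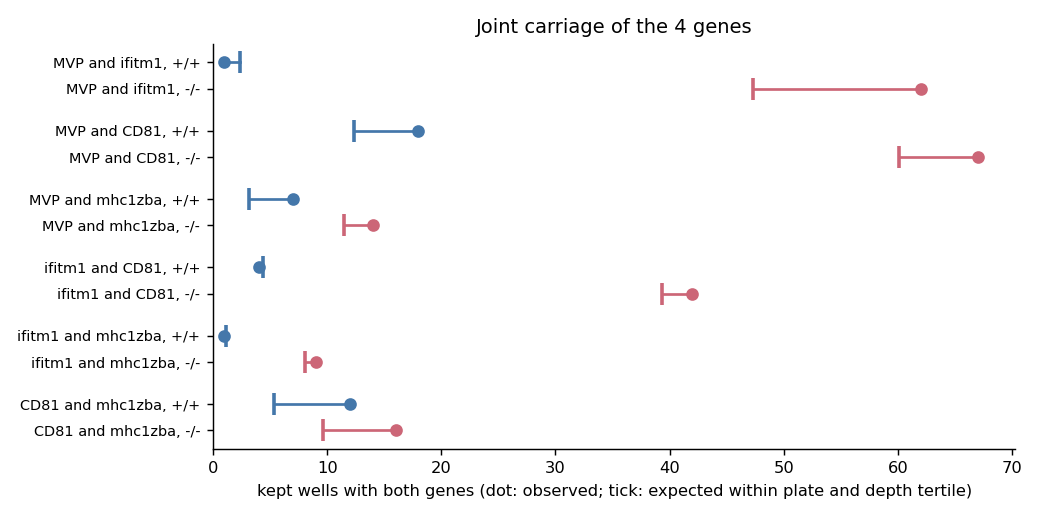
Number of kept wells that held both genes of each pair (dots, x axis) and the number expected within plate and depth tertile (ticks), for wild type (+/+, blue) and mutant (-/-, red). The widest gap is that of MVP and ifitm1 in mutants, with 62 wells against 47.3 expected.

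Wells with a gene were compared with wells without it in each plate with at least 5 carrying wells, within depth tertiles for every measure but depth itself. Carrying wells were deeper for every gene in every plate compared, by 0.49 log2 units on average for MVP in mutants and 1.00 in wild type. A deeper well is more likely to show at least 1 UMI of any gene, so nothing is read from this. Wells with mhc1zba had a lower cardiomyocyte share in 5 of 5 plates, with a mean difference of -6.49 percentage points in mutants and -7.75 in wild type. Wells with ifitm1 had a lower mitochondrial share in 6 of 6 plates, wells with MVP in 6 of 7 and wells with CD81 in 5 of 7. The mean differences in mutants were -2.26, -2.21 and -1.78 percentage points, and in wild type -1.86, 0.49 and 2.54. Within muscle-rich wells the share was lower in 4 of 6, 6 of 7 and 3 of 6 plates. For MVP the cardiomyocyte share of carrying wells was higher in 2 of 7 plates, with a mean difference of 0.36 percentage points in mutants and -3.82 in wild type, where the 2 deep wells were among the carriers. Leukocyte markers were higher in wells with MVP in 6 of 7 plates and with CD81 in 5 of 7. They were higher with mhc1zba in 4 of 5 plates and with ifitm1 in 1 of 6. Within muscle-rich wells the numbers, in the same order, were 2 of 7, 2 of 6, 1 of 2 and 2 of 6. Kept wells of mutant replicates 2, 3 and 4 held only 1, 3 and 5 transcripts of leukocyte markers. The direction in those plates thus rests on single molecules. Muscle-rich wells held 29 such transcripts over all wild-type plates and 24 over all mutant plates.

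The genes whose level most resembled each of the 4 across wells were found by the mean within-plate Pearson correlation among 655 genes present in at least 20% of the 1033 kept wells. Wells of a plate share their library and differ in depth, and all values were weak. For MVP they were tmsb4x (mean r = 0.23), UBB (0.20) and ALAS1 (0.20), which encode an actin-binding peptide, ubiquitin and an enzyme of haem synthesis. For ifitm1 they were tmsb4x (0.19), hspb9l (0.18) and si:dkey-164f24.2 (0.15), over 6 plates. CD81 was most like b2ml (0.26), a beta-2-microglobulin gene, with ENSDARG00000062416 (0.20) next. For mhc1zba, over 5 plates, they were ENSDARG00000067755 (0.23), the RNA helicase gene DDX5 (0.19) and tmsb4x (0.19).

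Other genes of the same pathways gave no call. The lists held vault, tetraspanin, antigen presentation and interferon genes, and of 113 listed genes besides the 4, 23 were high enough to test over kept wells and 18 in muscle-rich wells. None was called in either set by edgeR (adjusted p under 0.05), nor by DESeq2. Of all genes tested, edgeR called only 0.5% over kept wells and 2.66% in muscle-rich wells. The lack of calls in lists this short is therefore not read as a result about them. At an unadjusted p under 0.05 there were 5 over kept wells and 4 in muscle-rich wells, all higher in mutants. At that threshold 12.7% of all genes tested passed over kept wells and 7.54% passed as higher, and 17.0% and 9.53% in muscle-rich wells. The other vault genes could not be tested, since kept wells held 2 transcripts of tep1 and 9 of parp4.

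Of the tetraspanin list 10 of 31 were tested over kept wells, with a median log2 fold change of 0.36 against 0.02 over all genes, and 7 in muscle-rich wells, with a median of 0.68 against 0.03. The most abundant over kept wells were CD63, a lysosomal and vesicle tetraspanin, at 155 ± 62.7 CPM in wild type and 186 ± 161 in mutants, TSPAN9 at 48.5 ± 13.1 and 66.4 ± 23.7, and tspan36 at 45.4 ± 34.4 and 44.1 ± 43.5 (SD, n = 3 and 4). The fitted log2 fold change of CD63, with run as covariate, was -0.48 (SE 0.60), opposite in sign to its means, and in muscle-rich wells CD63 stood at 23.0 ± 7.40 and 46.6 ± 22.3 CPM. In muscle-rich wells the 3 most abundant were TSPAN9, cd9a and tspan5a. There cd9a stood at 20.5 ± 10.2 and 63.6 ± 7.69 CPM, with no overlap between genotypes, and edgeR gave a log2 fold change of 1.52 (SE 0.45) with an adjusted p of 0.0749. For tspan5a the means were 22.1 ± 10.9 and 58.8 ± 7.61 CPM, also without overlap, with a log2 fold change of 1.31 (SE 0.46) and an adjusted p of 0.142 by edgeR. Of the 7 tested there, these 2 had every mutant plate above every wild-type plate, and 1 other had every mutant plate below. The shares over all genes tested were 7.32% above and 6.37% below.

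Of the antigen presentation list 7 of 29 were tested over kept wells (median log2 fold change 0.42) and 6 in muscle-rich wells (0.58). The most abundant in both sets were b2m, b2ml and PSME1, a proteasome activator gene. Over muscle-rich wells b2m stood at 581 ± 48.9 CPM in wild type and 594 ± 203 in mutants, with a log2 fold change of 0.09 (SE 0.19). The second beta-2-microglobulin gene, b2ml, stood at 261 ± 20.7 and 388 ± 42.2 CPM without overlap between genotypes, and its log2 fold change of 0.60 (SE 0.18) had an adjusted p of 0.0840 by edgeR. PSME1 stood at 46.4 ± 16.1 and 29.2 ± 10.9 CPM. Counts of both beta-2-microglobulin genes are uncertain where they share reads.

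Of the interferon list 6 of 51 were tested over kept wells (median log2 fold change 0.52) and 5 in muscle-rich wells (0.28). Among the most abundant were the signalling kinase gene JAK1 and the feedback inhibitor SOCS3. Over muscle-rich wells JAK1 stood at 73.2 ± 58.3 CPM in wild type and 92.6 ± 48.4 in mutants, and for SOCS3 they were 44.9 ± 16.9 and 103 ± 52.9 CPM, where a log2 fold change of 0.92 (SE 0.33) had an adjusted p of 0.145 by edgeR. The levels of JAK1 and SOCS3 overlapped between genotypes. Over the 18 listed genes tested there, every mutant plate was above every wild-type plate for 4 (against 7.32% of all genes tested) and below for 1 (against 6.37%).

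**Figure D5:**
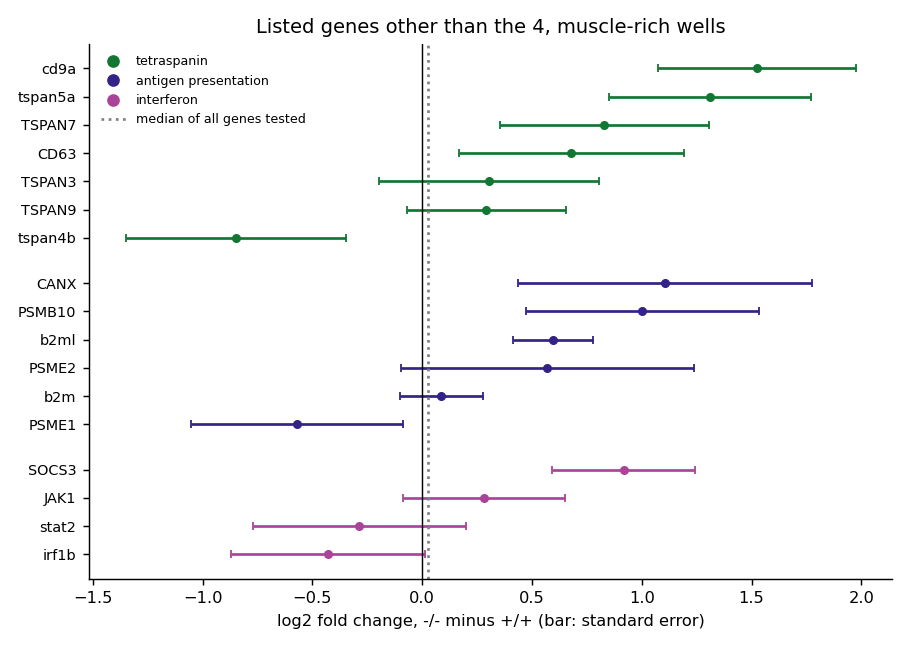
Fitted log2 fold change (mutant minus wild type, x axis) of 17 of the 18 listed genes other than the 4 that were tested in muscle-rich wells, with bars for the standard error, coloured by list. The dotted line is the median of all 2214 genes tested, 0.03; cd9a (1.52) and tspan5a (1.31) lie farthest to the right, and no gene shown was called.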

How the data were processed

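Libraries were made by CEL-seq2 with UMIs, per the labels' protocols. The submitters' processing notes name BWA 0.6.2. The sources used here name no genome build or annotation. The authors deposited estimated counts (transcripts by gene and well). All 857630 values above 0 matched, within 0.0051, a whole UMI number corrected for saturation of 4096 barcodes. Plates were numbered in order of deposit. No label assigns plates to different animals, so p-values reflect plate-to-plate spread, which may be technical. All plates use the same well barcodes, which link no cells.

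Kept wells held at least 1000 transcripts outside spike-ins and mitochondrial genes (13 rows by symbol). No doublet caller was run on these sorted single-cell wells. Estimated counts were summed per plate, rounded and tested with edgeR 4.0.16 in R 4.3.3 (TMM, filterByExpr, quasi-likelihood F test, run as covariate, Benjamini-Hochberg adjusted p under 0.05); DESeq2 1.42.0 was an alternative. The script was tested on simulated data. SEs come from the F statistic, and within-run differences use log2(CPM + 1). Thinned shares are exact expectations. Limits for a count of 0 (3 counts) cover counting error only. Correlations used log2(transcripts per 10000 + 1). Permutation tests enumerated all arrangements of plates, without regard to sequencing run. The 4 genes and the lists were chosen with earlier results of these data known. Named by rule were the 4 genes, hmga1a, the called and the 3 most abundant tested genes of each list, and the 3 genes most like each of the 4. Some genes that this rule names are not reported here.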

Additional observations from a re-analysis of the deposited data

Results flagged for a closer look

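Mutant replicate 1 stood apart from the other mutant plates in mhc1zba over muscle-rich wells, at 43.8 CPM against 6.14 to 10.7 CPM, and in its thinned share of wells, at 2.72% against 0.716% to 1.01%. Its gap to the nearest plate, divided by the range of the 4 mutant plates, exceeded the critical value of Dixon's test at 95%. Of 31 groups of 4 plates examined, 2 were picked out, and chance alone picks out about 1 in 20. That mutant plate held 15 UMIs of mhc1zba in 7 muscle-rich wells, 6 of them in 1 well, and its leukocyte markers in these wells were the highest of all plates, at 0.527 of 10000 transcripts; their part was not tested.

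Over kept wells mhc1zba was higher in both mutant plates of run 1 than in its wild-type plate (log2 difference 0.62) and lower in both mutant plates of run 2 than in both wild-type plates (-1.10). The difference between runs was not tested.

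Wells with at least 100 but fewer than 1000 transcripts, which enter no comparison above, also held MVP in a different amount by genotype. The lowest mutant plate, replicate 2, had 147 CPM without TMM scaling, from only 3 UMIs in 2 of its 42 wells. The highest wild-type plate, replicate 1, had 59.2 CPM, from 6 UMIs. In all there were 44 UMIs in 338 mutant wells, 26 of them in mutant replicate 4, and 8 UMIs in 489 wild-type wells. The separation of plates thus rests on few molecules. MVP was chosen on this contrast, and how many of all genes separate the plates in these wells was not counted. Nothing is therefore read from it. The genotypes overlapped there for ifitm1, at 99.9 CPM in wild-type replicate 3 and 47.5 in mutant replicate 4 on that scale. They overlapped for CD81 as well, at 138 CPM in wild-type replicate 1 and 63.3 in mutant replicate 4.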

How the results depend on the processing

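No paired analysis was possible because the labels give no replicate numbers, and equal numbers assigned by order of deposit pair no plates. Of 206 recalculated values over 15 results, 181 stayed on their side of the threshold, within 1.5 times the count, or within the spread between plates. Sign changed in 7, all of mhc1zba and within that spread. The 181 include these 7, every count of listed genes called (0 at all settings) and 7 joint carriage tests with 1 plate left out. Those tests could not reach a p under 0.05, so the total is no measure of stability by itself. The number of genes called over kept wells moved from 14 to 81 with no filter on low counts, 47 with DESeq2, 9 with no run covariate, 8 in run 1 alone and 29 in run 2 alone, and lay between 7 and 20 when 1 plate was left out (7, 9 and 9 without wild-type replicates 1, 2 and 3). In muscle-rich wells it moved from 59 to 33 with no run covariate and lay between 35 and 70 when 1 plate was left out (35, 38 and 38 without wild-type replicates 1, 2 and 3). No listed gene was called under any of these settings.

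The causes of these shifts were not tested. The log2 fold change of MVP moved from 1.88 to 2.72 with each well of equal weight, 3.05 in muscle-rich wells and 2.96 without the 2 wells over 20 MVP UMIs. That of CD81 moved from 0.70 to 1.74, 1.56 and 1.60. That of ifitm1 stayed between 2.60 and 3.02. That of mhc1zba changed sign, being 0.34 with no run covariate, 0.61 in run 1 alone and -1.19 in run 2 alone, and lay between -1.18 and -0.04 when 1 plate was left out. The difference in the share of wells with MVP moved from 25.0 percentage points to 17.5 after thinning and 29.2 at 2000 transcripts or more. That of ifitm1 moved from 18.7 to 9.64 and 22.6. Thinning removes molecules and so lowers shares by construction. The joint carriage ratio without depth tertiles was 2.13 in wild type and 1.40 in mutants, and the difference between plate means was then -1.32 (exact permutation p = 0.0286, the smallest possible) in place of -0.53. This difference between plate means also depends on the shares of wells, which differ between genotypes by the choice of genes. With 1 seeded thinning it was -1.34 (exact permutation p = 0.0857), and when 1 plate was left out it lay between -0.77 and -0.19 (exact permutation p from 0.0667 to 0.2), the smallest difference without wild-type replicate 1. With 1 plate left out the smallest possible p is 0.0667 (a wild-type plate) or 0.05 (a mutant plate), so none of these runs could pass. Many carrying wells held 1 UMI, which limits every statement on single wells.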
